A study of Mus musculus with 26 samples.

Results

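The 8 genes described here, called the members, stand for the nuclear end of canonical Wnt signalling in these data: Ctnnb1, the 4 TCF/LEF factor genes Lef1, Tcf7, Tcf7l1 and Tcf7l2, and the response genes Axin2, Sp5 and Lgr5. They were chosen by name, with earlier results of these data known, and they are 8 of 21883 protein-coding genes. A gene's window was its span in the mouse genome build GRCm38 with 50 kb added on each side, and a peak counted for a gene when it overlapped that window. Open chromatin had been mapped by ATAC-seq, a method that reads out where Tn5, a transposase, can reach and cut DNA, in 26 libraries of 50000 cells each. The 26 peak lists held 451563 peaks, of which 576 lay in the 8 windows. Merged over all lists, they formed 102 member regions of 75600 regions in the genome. At the window limit, the outermost Ctnnb1 peak inside lay 49.6 kb from the gene and the nearest one outside 50.1 kb, and for the other members the nearest peak outside lay 51.1 to 91.2 kb away.

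The first set of 18 libraries held 6 groups of 3. Embryonic stem (ES) cells at passage 16 had been grown in 2iL. Formative stem (FS) cells had been grown in A3XR, as line FS1 at passage 21 and line FS2 at passage 29. Epiblast stem cells (EpiSC) had been grown in AF at passage 22, or in AFX as lines AFX1 at passage 14 and AFX2 at passage 16. The second set, labelled Rd2, held 2 libraries of ES cells in 2iL at passage 33, 4 of epiblast-like cells (EpiLC) and 2 of EpiSC in AFX at passage 16. The EpiLC had been induced from ES cells for 2 days in AF with KSR and sorted for low GFP. The labels name no strain. The Rd2 ES cells have the source label Rd2GFP, so a GFP reporter is named for them, but the labels do not describe its construct. The titles of the Rd2 libraries carry the letters WT, and no genetic change is named for the first set. Each line is a single line, and nothing in the labels says that the libraries of a group came from separate cultures, so each p below measures the spread between these libraries. In published use of these media, A stands for activin, F for FGF2 and X for an inhibitor of tankyrase, and 2iL contains an inhibitor of GSK3.

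In canonical Wnt signalling, a destruction complex built on Axin proteins marks β-catenin, the product of Ctnnb1, for degradation, and Wnt ligands stop it. Stabilised β-catenin enters the nucleus and binds TCF/LEF factors, HMG-box proteins that otherwise hold their target genes down with co-repressors. In mouse pluripotent cells, Tcf7l1 is known as a repressor of naive pluripotency genes, and inhibition of GSK3 in 2iL relieves that repression. Tankyrase inhibition stabilises Axin and lowers the β-catenin signal, so AF and AFX differ in a component that acts on this pathway, and A3XR also contains it. AF EpiSC are therefore compared at the pathway's own genes with AFX EpiSC and FS cells, grown with that component. They are also compared with ES cells, grown in 2iL, whose GSK3 inhibitor acts on the pathway in the opposite sense. By their letters, A3XR and 2iL differ from AF in other components as well. Each medium also goes with its own lines in the first set, and no other group shares the passage of the AF libraries. Medium, line and passage therefore cannot be told apart in any difference below.

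The stretches upstream of 4 listed gene starts are shown, because they run from a start with a peak in nearly every list to one with none in any. Tcf7l2 had a peak in AF EpiSC and none in ES cells, Lef1 had one in AF, AFX and FS1 cells alone within the first set, Axin2 had one in nearly every list, and Sp5 had none in any list. The Tcf7l1 stretch is not shown. Peaks touched it in all 3 AF, 6 AFX, 3 FS1, 4 EpiLC and 2 Rd2 AFX libraries, 1 FS2 library and no ES library. The sequences are from RefSeq, build GRCm38.p6, written 5′ to 3′ on the gene's strand. Each ends at the base before the listed gene start, except that of Tcf7l2, which ends at the base before the gene span and 14 bases before its listed start. The Axin2 stretch lies inside the gene span, which begins at chr11:108917828, because the listed Axin2 start does too. The Tcf7l2 stretch is chr19:55741560-55741796, that of Lef1 chr3:131110047-131110296, that of Axin2 chr11:108920099-108920348 and that of Sp5 chr2:70474673-70474922, all on the plus strand. Capitals mark CTTTGA, the core of the TCF/LEF motif, searched on both strands.
Tcf7l2: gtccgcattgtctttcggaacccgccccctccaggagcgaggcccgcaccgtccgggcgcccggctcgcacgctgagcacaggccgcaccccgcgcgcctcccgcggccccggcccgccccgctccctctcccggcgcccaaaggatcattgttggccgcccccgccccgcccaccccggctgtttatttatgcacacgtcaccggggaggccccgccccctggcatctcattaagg
Lef1: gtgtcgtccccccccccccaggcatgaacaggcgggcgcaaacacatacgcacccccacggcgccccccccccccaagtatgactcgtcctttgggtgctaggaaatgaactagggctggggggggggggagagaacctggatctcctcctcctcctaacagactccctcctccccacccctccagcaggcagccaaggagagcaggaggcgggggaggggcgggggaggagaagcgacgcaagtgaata
Axin2: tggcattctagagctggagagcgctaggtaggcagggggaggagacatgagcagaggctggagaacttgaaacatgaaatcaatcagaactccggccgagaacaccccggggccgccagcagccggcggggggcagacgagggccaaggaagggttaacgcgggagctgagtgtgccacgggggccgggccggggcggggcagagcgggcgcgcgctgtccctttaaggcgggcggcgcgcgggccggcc
Sp5: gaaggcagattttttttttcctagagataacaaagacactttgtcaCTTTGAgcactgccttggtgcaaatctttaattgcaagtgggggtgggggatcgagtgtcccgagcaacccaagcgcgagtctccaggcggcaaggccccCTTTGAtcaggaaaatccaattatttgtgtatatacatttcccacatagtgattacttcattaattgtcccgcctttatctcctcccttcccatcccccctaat

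Of these 4 stretches, only that of Sp5 held the core. It held CTTTGA at 204 and at 104 bases before the start, and the nearer copy read CTTTGAT, the longer form of the motif. CTTTGA was found in the 250 bases before the start in 13.8% of 32851 RefSeq promoter entries, and CTTTGAT, which contains it, in 3.21%. Before another listed Lef1 start, chr3:131156294, CTTTGA was found on the opposite strand at 180 and 120 bases. A match is a description of the letters and no match says nothing about binding. The Sp5 stretch was also the poorest in G and C, at 46%, against 66.4% for Lef1, 69.2% for Axin2 and 73.8% for Tcf7l2. No peak of any of the 26 lists touched the Sp5 stretch. Peaks covered 100% of the Tcf7l2 stretch in each FS1, AF and AFX library, and between 40.4% and 76% of the Axin2 stretch in the ES, FS1, AF and AFX libraries.

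List length set how much could be seen, and it differed between groups. ES lists of the first set held 8044 to 10961 peaks, FS2 lists 11796 to 14147, AF lists 15505 to 24824, and FS1 and AFX lists together 17701 to 31263. Counts are therefore given for the lists as deposited and at equal list length, which kept the 8044 peaks with the highest −log10 p of each list. Read depth was unknown, since the lists hold no counts of reads, and in a bulk sample a weaker signal in all cells and a signal in fewer cells cannot be told apart. In the windows of 6 naive markers, ES libraries held 5 to 8 peaks at equal length, AF libraries 1 each, AFX 2 to 3 and FS 0 to 4. In the lists as deposited, the median difference of AF minus ES over these 6 windows was 0.33 peaks, against 1.33 over all genes. The marker counts that follow are at equal length. In the windows of 4 primed markers, AF libraries held 2 to 5 peaks, AFX 1 to 5, FS 0 to 3 and ES 0 or 1. In the windows of 4 formative markers, the counts of FS at 7 to 11, AF at 8 to 9 and AFX at 7 to 10 overlapped, with ES at 1 to 2, so this list did not set FS cells apart. Windows of 3 fibroblast genes held 3 to 8 peaks in FS, 3 to 5 in AF, 3 to 7 in AFX and 1 to 3 in ES libraries, and the part of feeder cells in the results was not tested.

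**Figure D1:**
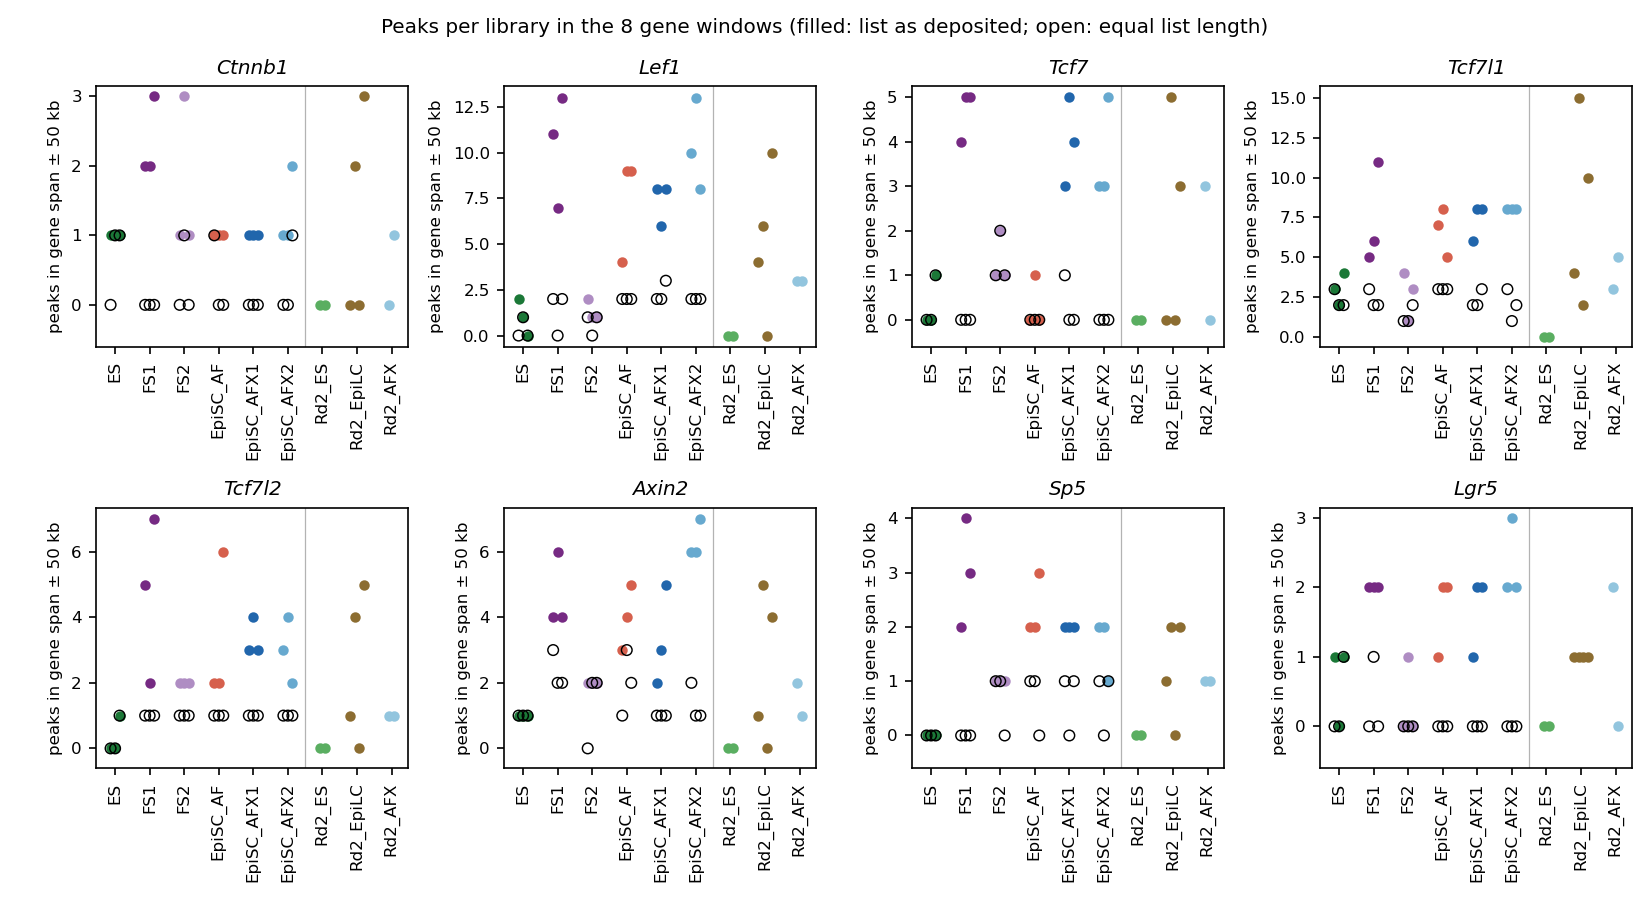
Number of peaks per library (vertical axis) in the window of each of the 8 genes by group (horizontal axis), with filled points for lists as deposited and open points for equal list length, which was applied to the first set only. The filled Tcf7 points of AF EpiSC lie at 0, 1 and 0, below all 6 AFX points, and the open Lef1 points of AF and AFX lie at 2 or 3.

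Summed over the 8 windows at equal length, ES libraries held 4, 5 and 7 member peaks and AF libraries 9, 10 and 8. AFX1 libraries held 8, 6 and 9, AFX2 libraries 9, 5 and 8, FS1 libraries 9, 6 and 7, and FS2 libraries 5, 8 and 7. The AF libraries stood above the ES libraries with no overlap, and overlapped with AFX and FS. The mean was 9 ± 1 (SD, n = 3) in AF, 5.33 ± 1.53 (SD, n = 3) in ES, and over 6 libraries each it was 7.5 ± 1.64 (SD) in AFX and 7 ± 1.41 (SD) in FS. The sum is a description, with no test. In the lists as deposited the order of AF and AFX turned, with 26.7 ± 5.86 in AF, 30 ± 3.61 in AFX1 and 36.7 ± 2.89 in AFX2.

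No member window passed adjustment in any comparison, and no other gene's window did either. In the exact permutation test with Benjamini-Hochberg adjustment over all genes with a peak, the background was 0% called of 16243 windows for AF against AFX, of 16744 for AF against FS and of 17057 for AF against ES. The smallest two-sided p that 3 against 6 libraries can give was 0.0119, and 3868 windows at that p would have been needed for a call between AF and AFX. For 3 against 3 it was 0.1. At an unadjusted p under 0.05, 281 windows (1.73%) passed for AF against AFX, 544 (3.25%) for AF against FS and 0 (0%) for AF against ES, none of them a member's. The 3 comparisons share the AF libraries, so they are not independent of each other. By counts that did not overlap at equal length, 0 of the 8 members separated AF from AFX, where 0.345% of windows had higher and 0.252% lower counts in AF, and 0 of 8 separated AF from FS, where these shares were 0.836% and 0.705%. For AF against ES 1 of 8 did, Lef1, with AF higher, where 10.9% of all windows had higher and 3.96% lower counts in AF. With peaks at the starts of other genes left out of every window, a setting added after the data were seen, Lef1 also separated AF (2, 2 and 2) from FS (1, 0, 1, 1, 0 and 1), where 0.602% of windows were higher in AF in this way. In the same setting Lef1 and Tcf7l1, at 1 peak in each AF and 0 in each ES library, separated AF from ES, where 8.64% of windows were higher in AF.

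Ctnnb1 encodes β-catenin, the coactivator on which the pathway turns, and the region over its start was the member region found in the most first-set lists as deposited. This region, chr9:120932599-120933835, held a peak in all 18 first-set libraries as deposited, the only one of the 102 to do so, and in 2 of 4 EpiLC libraries. In FS2 its peaks ended short of the start, so 0 of 3 FS2 libraries had a peak over a listed start itself. The peak of the region was of middling rank: within the list of each AF library it stood above 31.2% to 69.7% of peaks by −log10 p, and within those of ES libraries above 7.54% to 48.7%. At equal length it was kept in 2 ES, 1 AF and 1 AFX2 library and in no FS or AFX1 library. As deposited, the window counts were 1 in each ES and AF library and 2, 2, 3 in FS1 and 1, 3, 1 in FS2. Of the 5 regions of the window, this was the only one in 9 or more libraries. Upstream, chr9:120918771-120919555, centred 14.2 kb before the start, had a peak in 2 FS1, 1 FS2 and 2 EpiLC libraries. Further out, chr9:120893549-120893807, 39.7 kb before the start, had one in 2 FS1, 1 FS2 and 1 EpiLC library. Neither had one in an ES, AF or AFX library, and both were named after their values were seen.

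Lef1 encodes a TCF factor known mainly as an activator with β-catenin, and among the members it gave the clearest difference between AF and ES windows. At equal length its window held 2, 2 and 2 peaks in AF, 0, 1 and 0 in ES, 2, 2, 3 in AFX1 and 2, 2, 2 in AFX2. FS1 libraries held 2, 0 and 2, and FS2 libraries 1, 0 and 1. AF and AFX counts were level at 2 to 3, ES counts lay below both, and FS counts reached from 0 to 2. AF exceeded ES by 1.67 peaks, with an exact permutation p of 0.1 and an adjusted p of 0.674, and AF differed from AFX by -0.17 (exact permutation p 1). As deposited, AF held 4, 9 and 9 peaks, ES 2, 1 and 0, FS1 11, 7 and 13 and FS2 2, 1 and 1, beside 8, 6 and 8 in AFX1 and 10, 13 and 8 in AFX2. FS1 thus overlapped with AF and AFX, and FS2 with ES.

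More of the Lef1 count at equal length came from an upstream region than from any other. This region, chr3:131083782-131085556, is centred 25.6 kb before the Lef1 start and overlaps no listed gene start. At equal length it held a peak in 3 of 3 AF, 3 of 3 AFX1, 3 of 3 AFX2, 2 of 3 FS1, 0 of 3 FS2 and 1 of 3 ES libraries. In the Rd2 set it held one in 3 of 4 EpiLC and 2 of 2 AFX libraries and in neither ES library. It ranked high in its lists, above 70.04% to 80.02% of peaks in AF libraries, 77.9% to 94.6% in AFX libraries, 84.5% to 90.4% in the 3 EpiLC libraries and 18.7% in the ES library that had it. The start itself, chr3:131110082-131110542, showed a different distribution. As deposited it held a peak in all 3 AF, all 6 AFX and all 3 FS1 libraries and in 0 of 3 ES, 0 of 3 FS2, 0 of 4 EpiLC and 0 of 2 Rd2 AFX libraries, while at equal length it was kept in 1 AF and 1 AFX1 library only. EpiLC and Rd2 AFX libraries thus had peaks in the upstream region without one over the start. A region at a further listed Lef1 start, chr3:131112158-131112807, had a peak in 2 AF, 6 AFX, 3 FS1 and 1 FS2 library as deposited and in no ES library. The window also includes the start of Hadh, a mitochondrial fatty acid oxidation gene, where chr3:131271328-131272329 held peaks in 3 AF, 6 AFX, 3 FS1 and 1 ES library as deposited.

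**Figure D2:**
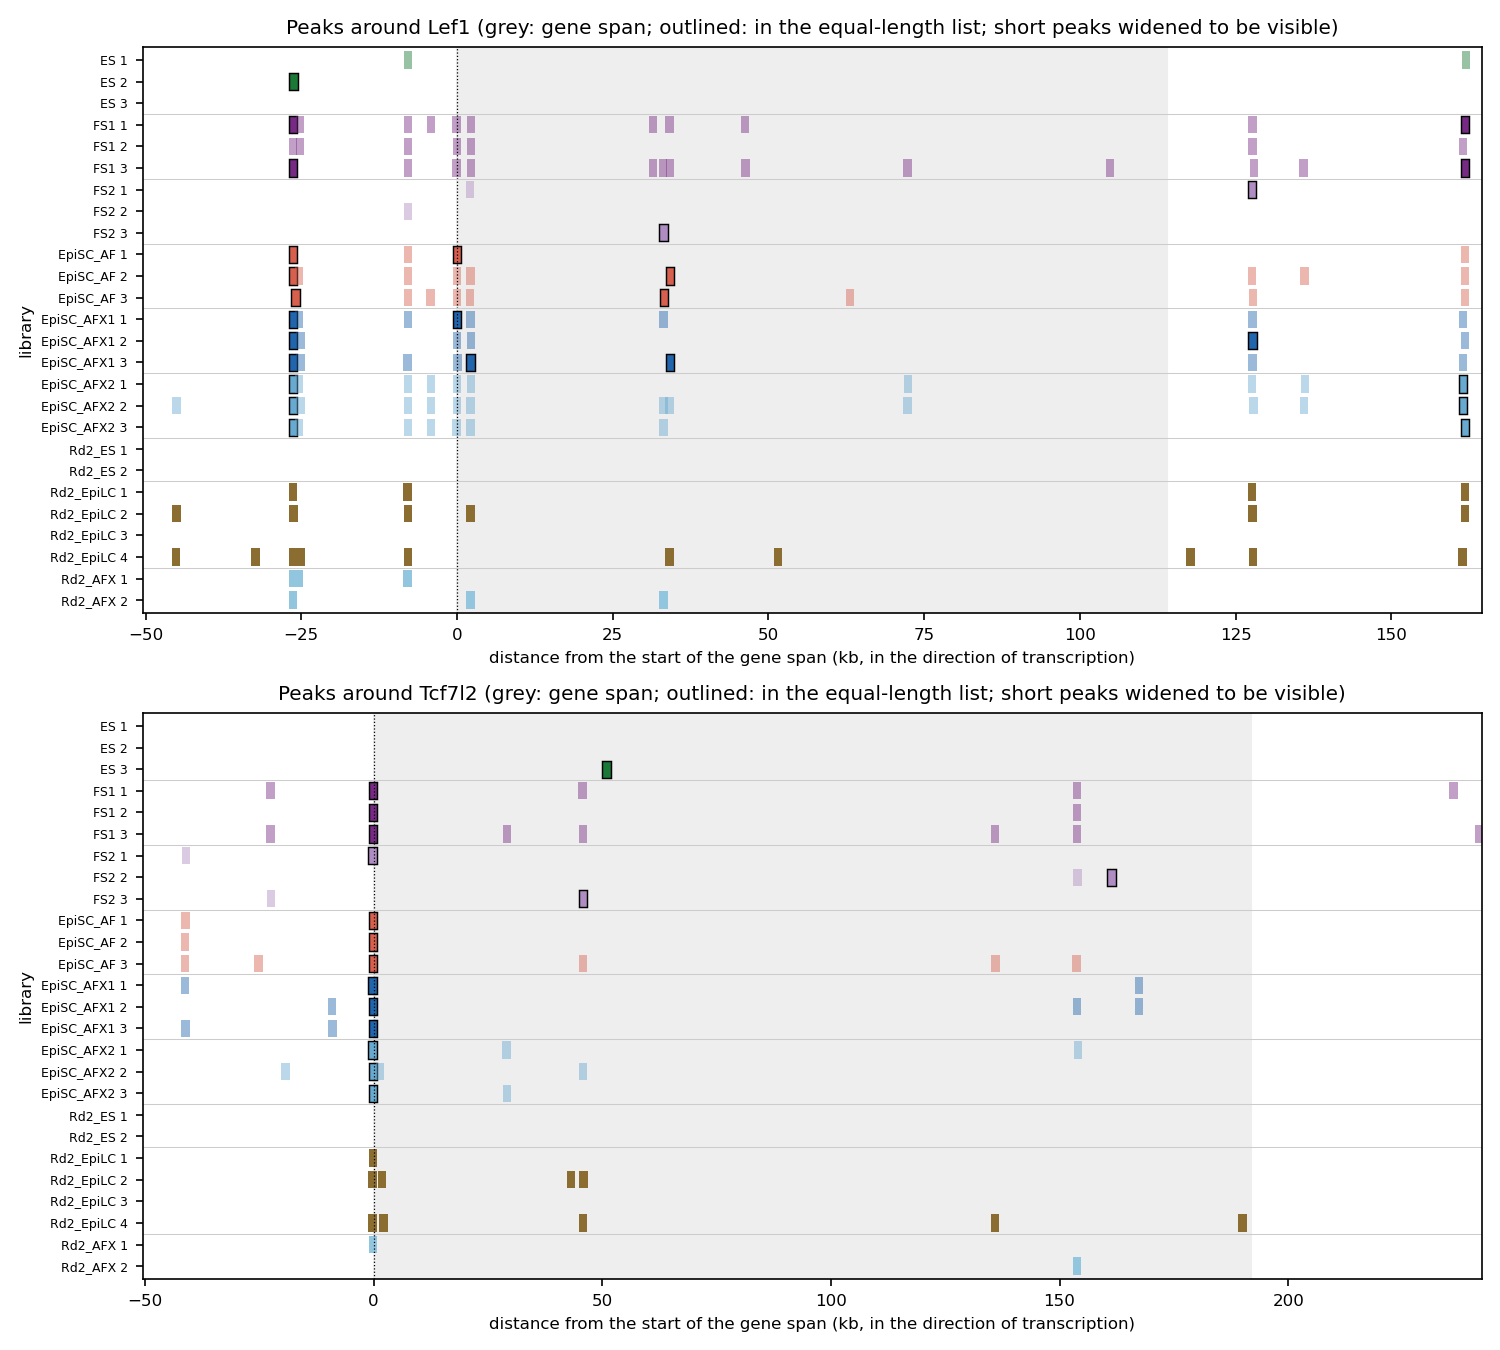
Peaks of each of the 26 libraries (rows) around Lef1 and Tcf7l2, by distance in kb from the start of the gene span, with the span in grey and peaks kept at equal list length outlined. In the region centred 25.6 kb before Lef1, a peak is outlined in all 9 EpiSC libraries of the first set, 2 FS1 and 1 ES library. The outlined peak of AF 1, for example, lies 26.3 to 26.5 kb before the start. The column over the Tcf7l2 start is outlined in the same 9 EpiSC libraries, 3 FS1 and 1 FS2 library, and it is empty in ES.

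Tcf7l2, which encodes a TCF factor with activating and repressing isoforms, held the only member region that separated AF from ES at equal length. The region over its start, chr19:55741231-55741915, held a peak in 3 of 3 AF and 0 of 3 ES libraries, at equal length and as deposited (Fisher's exact p 0.1, adjusted 1 over all regions at equal length). Over all regions, 5.59% were held by AF in this way at equal length and 3.34% by ES, and 1 of 18 member regions tested was, so the share among members, 5.56%, lay at the background. The same region held a peak in 3 of 3 AFX1, 3 of 3 AFX2, 3 of 3 FS1 and 1 of 3 FS2 libraries, and in the Rd2 set in 3 of 4 EpiLC, 1 of 2 AFX and 0 of 2 ES libraries. It stood above 82.6% to 92.1% of peaks in AF lists, 56.2% to 93.1% in AFX lists and 72.1% to 87.4% in FS1 lists. FS2 was thus low at this start, and FS1 level with the EpiSC lines.

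Window counts hid this difference in part. At equal length the Tcf7l2 window held 1 peak in every AF, AFX and FS library and 0, 0 and 1 in ES, but in 2 FS2 libraries and in ES 3 the peak lay within the gene and not at its start. As deposited the counts were 2, 2, 6 in AF, 3, 4, 3 in AFX1, 3, 4, 2 in AFX2, 5, 2, 7 in FS1 and 2, 2, 2 in FS2, which overlap between all of them. A region 41.1 kb before the start, chr19:55700394-55700960, at the listed start of the uncharacterised gene Gm41871 and named after its values were seen, had a peak as deposited in 3 of 3 AF, 2 of 3 AFX1 and 1 of 3 FS2 libraries and in no other (AF against FS, Fisher's exact p 0.0476, adjusted 1). None of these peaks was kept at equal length.

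Tcf7l1 encodes the TCF factor best known as a repressor in pluripotent cells, and its window held peaks in every first-set library. At equal length the counts were 3, 3 and 3 in AF, 2, 2, 3 in AFX1, 3, 1, 2 in AFX2, 3, 2, 2 in FS1, 1, 1, 2 in FS2 and 3, 2, 2 in ES. All AF libraries stood at 3, the highest count of any library, and each other group but FS2 also reached 3. AF exceeded FS by 1.17 peaks (exact permutation p 0.0833, adjusted p 1) and AFX by 0.83 (exact permutation p 0.155, adjusted p 1). Most of these peaks came from 2 regions present in nearly all groups. An intronic region, chr6:72677268-72678341, within 1 kb of the listed start of the uncharacterised gene Gm31391, had a peak at equal length in 3 ES, 3 FS1, 1 FS2, 3 AF and 6 AFX libraries. The other, chr6:72616247-72617138, lies over the start of Tgoln1, a trans-Golgi network gene, and had a peak in 2 ES, 3 FS1, 2 FS2, 3 AF and 5 AFX libraries. Both were named after their values were seen.

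Within the first set, the region around the Tcf7l1 start was seen mainly in the longer lists. This region, chr6:72787288-72789747, had a peak as deposited in 3 of 3 AF, 6 of 6 AFX, 3 of 3 FS1, 1 of 3 FS2 and 1 of 3 ES libraries. It also had one in 4 of 4 EpiLC and in 2 of 2 Rd2 AFX libraries. The listed start itself lay under a peak as deposited in 1 AF, 1 AFX1, 1 FS1 and 4 EpiLC libraries, and in 0 at equal length. The ES peak lay 1.27 to 1.58 kb past the start. At equal length the region was kept in 2 AF and 1 FS1 library and in no AFX library, with a Fisher's exact p of 0.0833 (adjusted 1) for AF against AFX. EpiLC is the only group other than FS1, AF and the AFX lines in which each library had a peak in both this region and the Lgr5 start region described below. An intragenic region, chr6:72641519-72641895, named after its values were seen, had a peak as deposited in 3 AF, 2 AFX1 and 2 FS2 libraries and in none of ES, FS1, AFX2 or Rd2.

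Tcf7, which encodes TCF1, a factor known as an activator and itself a Wnt target, was the only member whose counts separated AF from AFX, and only in the lists as deposited. Its window held 0, 1 and 0 peaks in AF, 3, 5 and 4 in AFX1 and 3, 3 and 5 in AFX2. All 6 AFX libraries lay above all 3 AF libraries. The means were 0.333 ± 0.577 (SD, n = 3) and 3.83 ± 0.983 (SD, n = 6), so AF differed by -3.5 (p 0.0119 by exact permutation, adjusted p 1). Over all windows, 1.37% had lower counts in AF in this way as deposited and 0.035% higher, and 1 of 8 members did. FS1 libraries held 4, 5 and 5 peaks, FS2 1, 2 and 1, ES 0, 0 and 1, EpiLC 0, 5, 0 and 3, and Rd2 AFX 3 and 0. AF was thus as low as ES, whose lists were the shortest of the first set.

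List lengths differed beside this difference, and their part in it was not tested beyond the equal lengths given here. The AF lists held 15505, 21549 and 24824 peaks, with 0, 1 and 0 in the Tcf7 window. The AFX1 lists held 17701, 21394 and 27485, with 3, 5 and 4 in the window. The AFX2 lists held 25641, 29575 and 25979, with 3, 3 and 5. With AF and AFX lists all kept to 15505 peaks, the counts were 0, 1 and 0 in AF and 2, 4, 2, 1, 1 and 1 in AFX, which overlap (difference -1.5, exact permutation p 0.155), where 0.386% of windows were lower in AF with no overlap. At 8044 peaks a single AFX1 library held 1 and all other EpiSC libraries 0. Against FS, with lists kept to 11796 peaks, AF held 0, 0 and 0 and FS 1, 2, 1, 1, 2 and 1, with no overlap (exact permutation p 0.0119, adjusted p 1). Over all windows 0.719% were lower in AF in this way. As deposited the AF and FS counts met at 1 (exact permutation p 0.0595), where 0.295% of windows were lower in AF with no overlap. Both of these lengths were chosen after the data were seen.

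Part of the Tcf7 difference lay over another gene. The region chr11:52231636-52232376, over the start of Skp1, a subunit of SCF ubiquitin ligases, lies 14.2 kb beyond the end of Tcf7. As deposited it held a peak in 3 of 3 FS1, 3 of 3 FS2, 3 of 3 AFX1 and 2 of 3 AFX2 libraries and in 0 of 3 AF and 0 of 3 ES libraries. It was the only one of 63 member regions tested that separated AF from FS as deposited (Fisher's exact p 0.0119, adjusted 1), where 0.142% of all regions were held by FS in this way and 0.308% by AF. Nearer to Tcf7, chr11:52286344-52286838, centred 3.21 kb before its start and named after its values were seen, held a peak in 3 FS1, 1 FS2, 3 AFX1 and 2 AFX2 libraries and in no AF or ES library. Its Fisher's exact p for AF against AFX was 0.0476, as was that of the Skp1 region, both with an adjusted p of 1. The region over the Tcf7 start, chr11:52282513-52283501, had a peak in 1 AF, 1 AFX1, 3 AFX2 and 1 FS1 library. With peaks at the starts of other genes left out, the Tcf7 window held 0, 1 and 0 in AF and 2, 4, 3, 2, 3 and 4 in AFX, still with no overlap, where 1.1% of all windows were lower in AF in this way, and 3, 4, 4, 0, 1 and 0 in FS, which overlapped with AF.

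**Figure D3:**
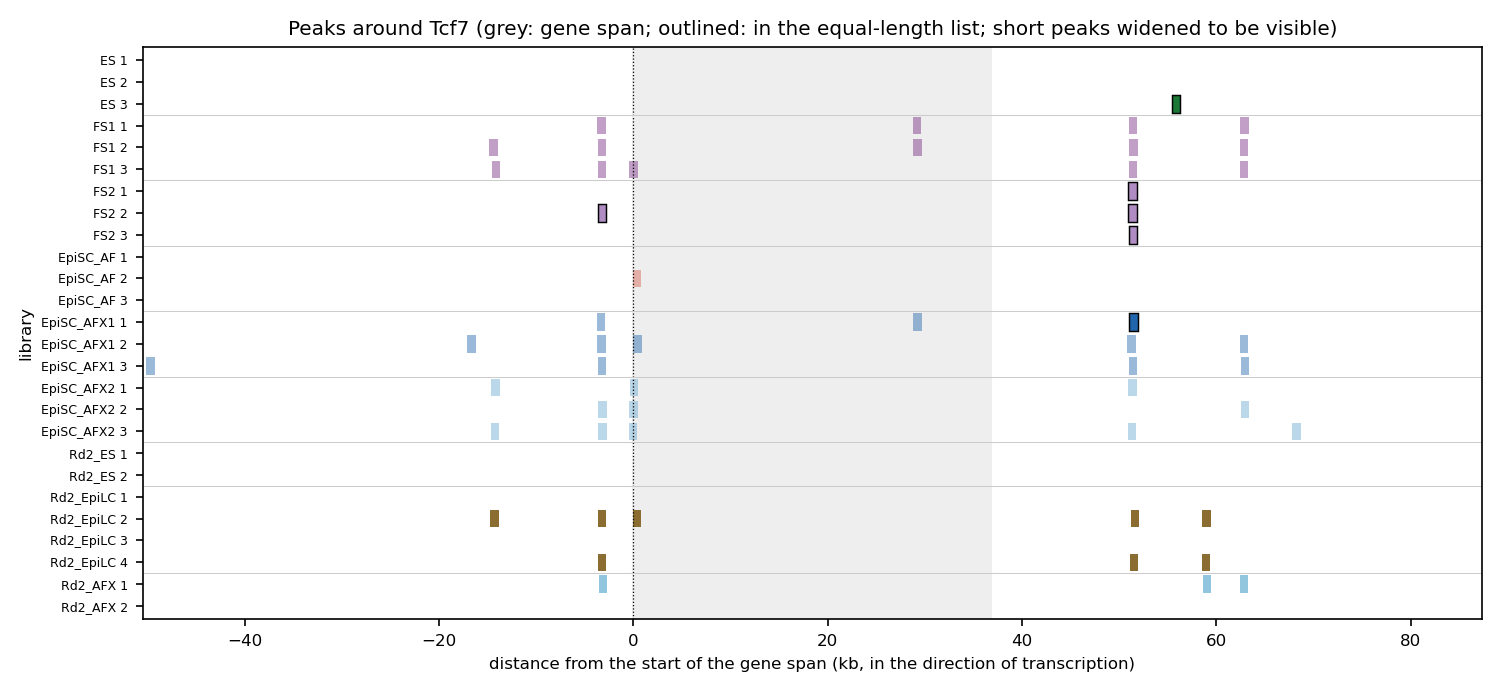
Peaks of each of the 26 libraries (rows) around Tcf7, by distance in kb from the start of the gene span in the direction of transcription, with the span in grey and peaks kept at equal list length outlined. The rows of AF EpiSC hold 1 peak in all, at the start, while the columns 3.21 kb before the start and over the Skp1 start are filled in all 3 FS1 and in 5 of 6 AFX libraries each.

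Axin2, a scaffold of the destruction complex and a feedback target of the pathway, had the most constant start region at equal length. The region over its listed start, chr11:108920159-108921701, held a peak in 17 of 18 first-set libraries at both list lengths, the exception being an FS2 library. It also did so in 3 of 4 EpiLC and 2 of 2 Rd2 AFX libraries. It stood above 78.9% to 96.3% of peaks in AF lists, 75.1% to 96.8% in AFX lists, 81.3% to 93.3% in FS1 lists and 9.95% to 78.95% in ES lists. The start of this feedback gene was therefore in the peak lists of ES cells in 2iL, of cells in AF and of cells in AFX alike. As a presence call this does not compare how open it was.

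The rest of the Axin2 window differed more between lines. Its counts at equal length were 1, 3 and 2 in AF, 1, 1, 1 in AFX1, 2, 1, 1 in AFX2, 3, 2, 2 in FS1, 0, 2, 2 in FS2 and 1, 1, 1 in ES. AF and AFX overlapped at 1 and 2 (difference 0.83, exact permutation p 0.155, adjusted p 1). A region centred 7.43 kb before the gene span, chr11:108909523-108911271, at the listed start of the uncharacterised gene Gm46298, held a peak at equal length in 2 AF, 1 FS2 and no AFX library (AF against AFX, Fisher's exact p 0.0833, adjusted 1). As deposited it was present in 3 of 3 AF, 6 of 6 AFX, 3 of 3 FS1 and 2 of 3 FS2 libraries and in no ES library. Within the gene, chr11:108943730-108944139, named after its values were seen, had a peak as deposited in 3 of 3 FS1, 2 of 3 FS2, 2 of 3 AF and 3 of 3 AFX2 libraries but in 0 of 3 AFX1 libraries, so the AFX lines differed there.

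Sp5, a zinc-finger gene induced by Wnt that restrains other targets, had no peak over its listed start in any list. The peaks of its window lay elsewhere. The recurrent one, chr2:70508831-70509570, lies 31.1 kb beyond Sp5 over the start of Erich2, and held a peak as deposited in all 15 first-set libraries other than ES and in 0 of 3 ES libraries. At equal length it was kept in 2 of 3 libraries each of FS2, AF, AFX1 and AFX2 and in none of FS1, and these are all the peaks of the Sp5 window at that length. Closer to the gene, chr2:70471841-70472321, centred 2.84 kb before the start and named after its values were seen, had a peak as deposited in 3 of 3 AF, 2 of 3 FS1, 1 of 3 AFX1, 2 of 3 AFX2 and 1 of 4 EpiLC libraries and in no ES or FS2 library. Just past the start, chr2:70474981-70475264, likewise, had one in 2 FS1, 2 AFX1 and 1 EpiLC library.

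**Figure D4:**
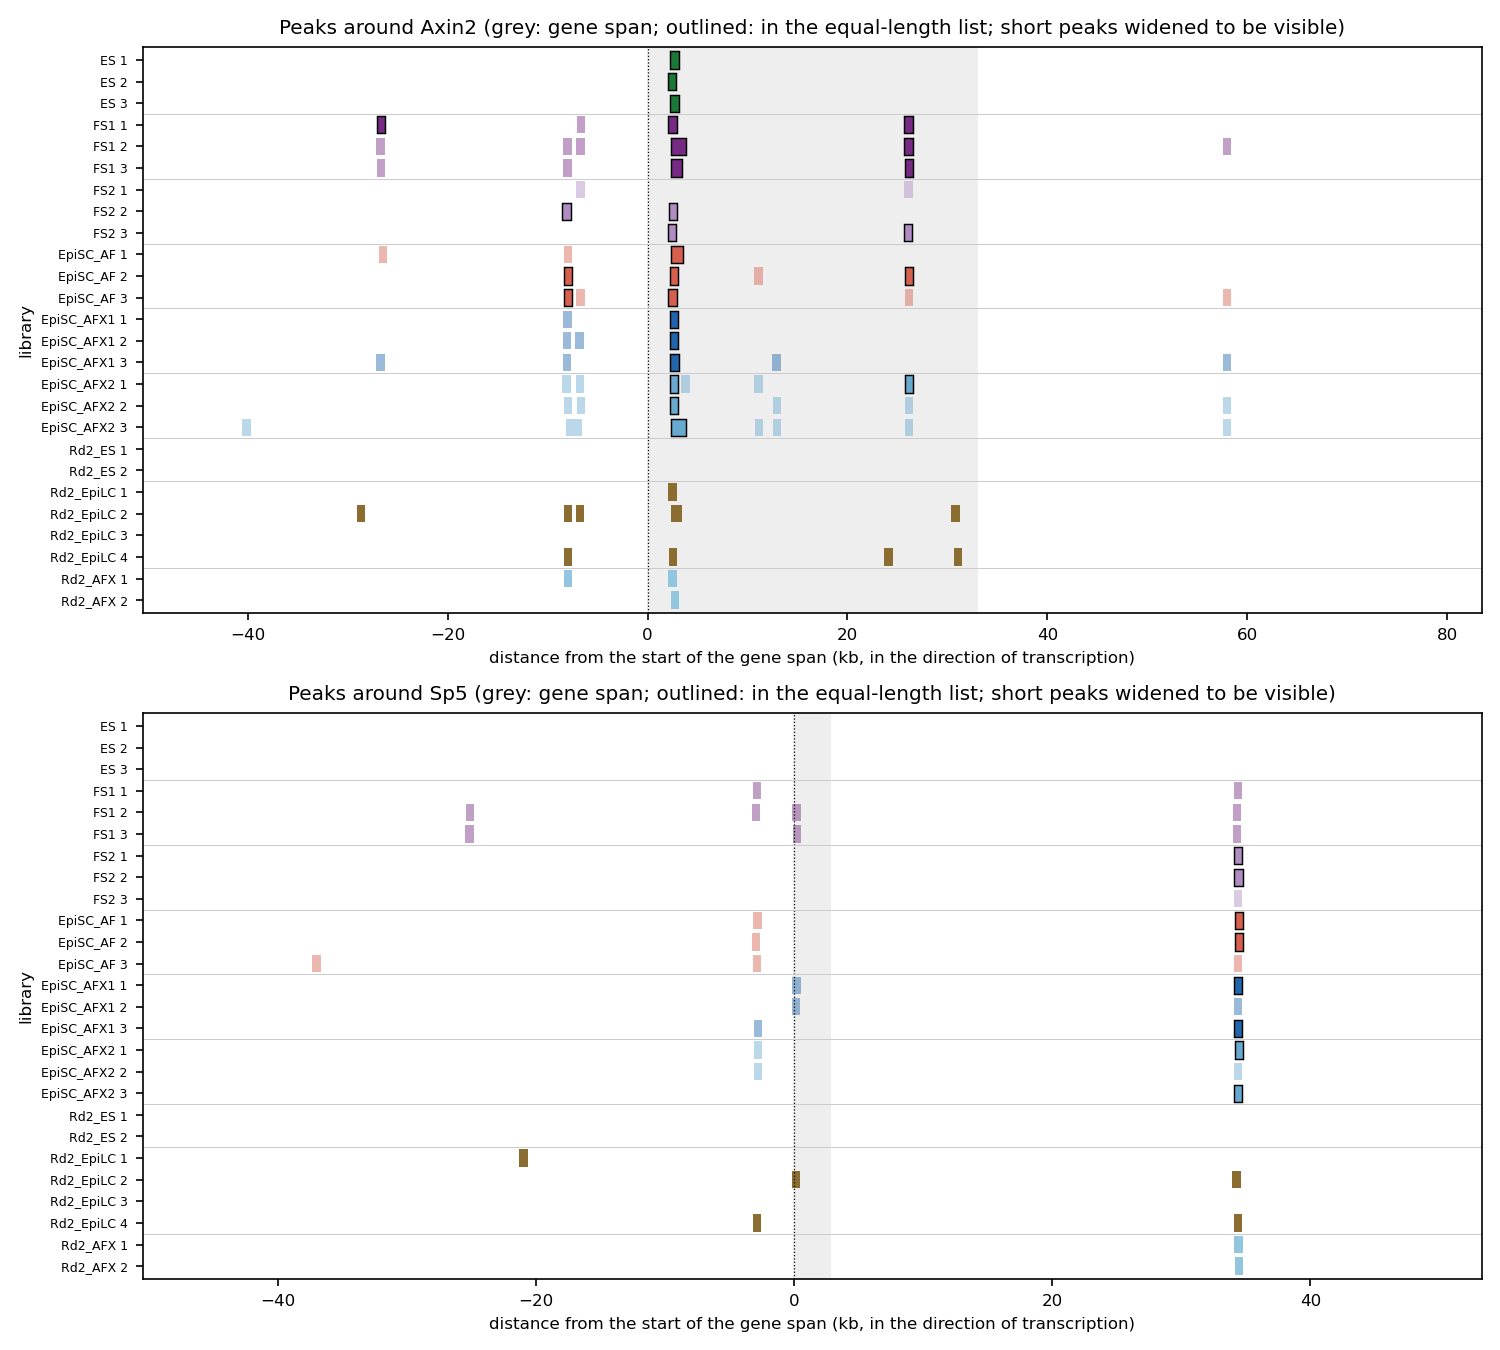
Peaks of each of the 26 libraries (rows) around Axin2 and Sp5, by distance in kb from the start of the gene span, with the span in grey and peaks kept at equal list length outlined. The Axin2 start region is filled in 17 of 18 first-set libraries, whereas the peaks most common around Sp5 lie beyond it at the Erich2 start.

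Lgr5 encodes a receptor for R-spondins, which raise Wnt signalling by protecting its receptors, and it marks Wnt-responsive stem cells in several adult tissues. All 6 of its regions overlapped the gene span, and no list held a peak in the 50 kb on either side beyond them. The region over the upper end of the span, chr10:115586913-115588042, where this minus-strand gene starts, held a peak as deposited in 3 of 3 AF, 6 of 6 AFX, 3 of 3 FS1, 1 of 3 FS2 and 1 of 3 ES libraries, in 4 of 4 EpiLC and in 1 of 2 Rd2 AFX libraries. It was of middling to low rank, above 32.6% to 51.3% of peaks in AF lists, and at equal length only 1 FS1 library kept it. At that length no AF or AFX library had any Lgr5 peak. A further region, chr10:115468929-115469444, had a peak as deposited in 2 FS1, 2 AF, 2 AFX1 and 3 AFX2 libraries, and was named after its values were seen.

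**Figure D5:**
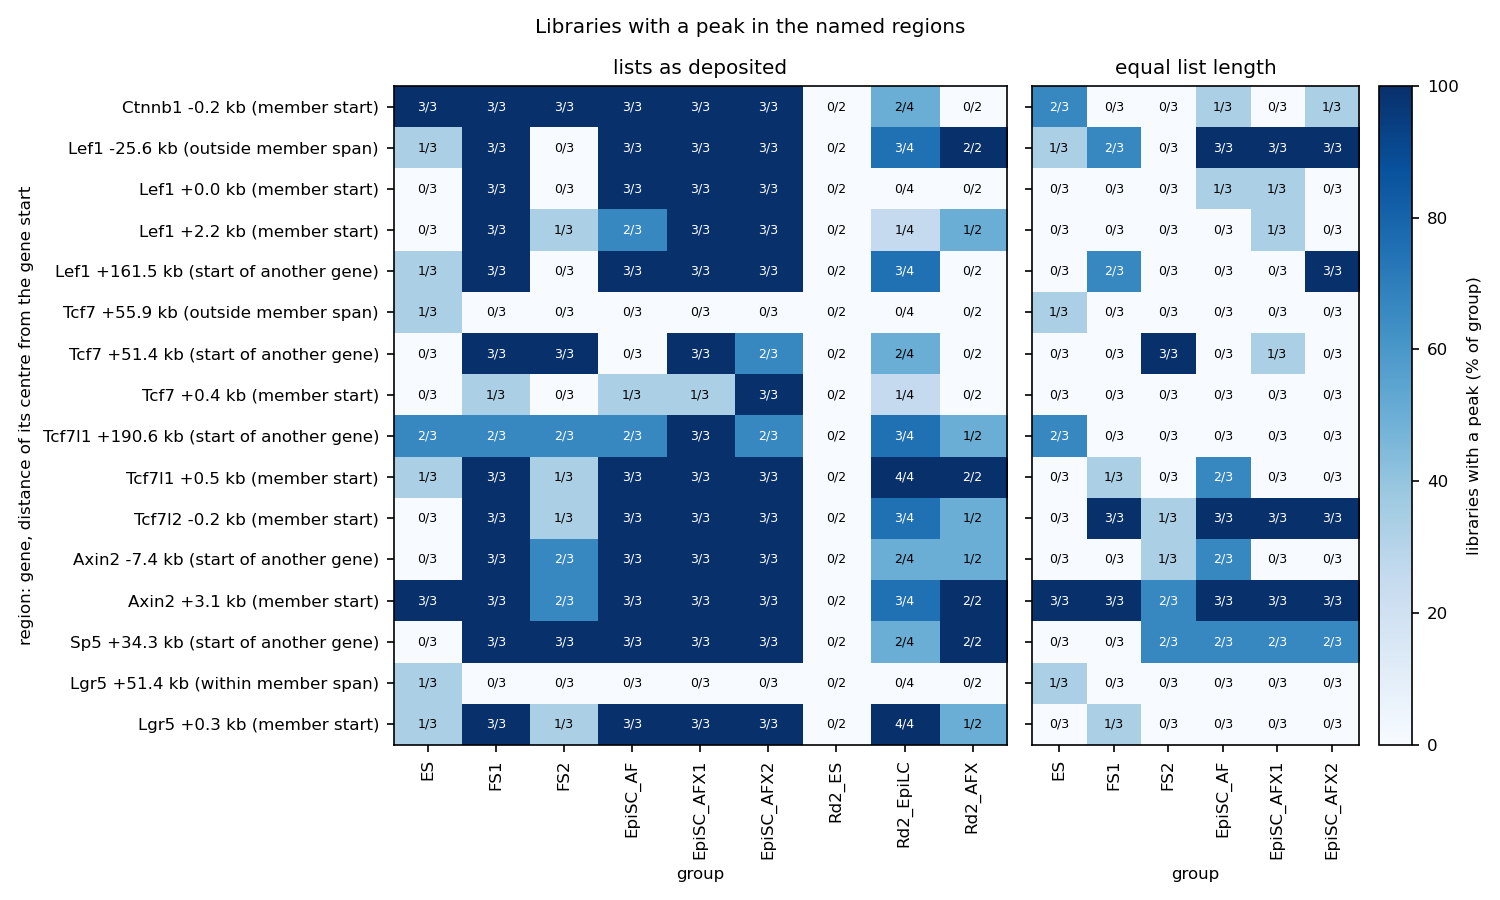
Libraries with a peak in each of the 16 named regions (rows, with the distance of the region's centre from the start of the gene span) by group (columns), as deposited on the left and at equal list length on the right, with the colour giving the percent of the group. Member start regions filled in the EpiSC and FS1 columns as deposited hold at most 2 libraries of a group at equal length, other than those of Tcf7l2 and Axin2.

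Within the member windows, regions at gene starts recurred more often than those elsewhere. These shares were not computed over all 75600 regions, so they cannot be read as a trait of the members. Of the 102 member regions, 11 lay within 1 kb of a listed member start, and 7 of these recurred in 9 or more of the 18 first-set lists. Of 9 at the start of another gene, 7 did, against 2 of 42 within a span and 4 of 40 outside it. A peak in a single list made up 24 of the 42 and 19 of the 40, and 43 of the 102 regions in all. At equal length 30 of the 102 regions held a peak in any first-set list, and none did in all 18.

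Region by region, AF and AFX were not separated at any member. None of 19 member regions tested at equal length and none of 64 as deposited had a peak in every library of one and none of the other, where 0.284% of all regions were held by AF and 0.116% by AFX at equal length and 0.11% and 0.269% as deposited. The smallest adjusted Fisher's exact p over the member regions was 1, and 2 of 64 had an unadjusted one under 0.05 as deposited, both in the Tcf7 window, where 1.2% of all regions did. With AF 1 left out, 2 of 19 member regions were held by AF and not AFX at equal length, where 0.657% of all regions were. For AF against FS, 0 of 24 were separated at equal length, where 0.566% of all regions were held by AF and 0.332% by FS. For AF against ES as deposited, 7 of 43 member regions tested, 16.3%, were held by all AF and no ES libraries, where 12.5% of all regions were and 0.861% the reverse. They lay at Lef1 (its start), Tcf7l1, Tcf7l2 (its start and the region at the Gm41871 start), Axin2 and Sp5 (2 regions), each with a Fisher's exact p of 0.1 and an adjusted p of 0.75. By window counts as deposited, 5 of 8 members were higher in AF than in ES with no overlap and 0 were lower, against 39.3% and 0.539% of all windows. The 5 were Lef1, Tcf7l1, Tcf7l2, Axin2 and Sp5. Without peaks at the starts of other genes only Lef1, Axin2 and Sp5 were, against 28.3% of all windows.

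Across the Rd2 set, both ES libraries held 0 member peaks, in lists of 471 and 2576 peaks. The 4 EpiLC libraries held 12, 40, 3 and 38 in lists of 10563, 23608, 7469 and 26045, and both AFX libraries 15 and 12 in lists of 11252 and 10719. Member peaks followed list length within EpiLC, with the 2 longer lists far above the 2 shorter. The Tcf7l1 and Lgr5 start regions held a peak even in the shortest EpiLC list, and those of Tcf7l2 and Axin2 in the other 3. Since the lists of the sets had been made with different shortest peaks, 150 bp and 110 bp, no test was made across them.

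Among 34 other genes of the pathway, 0 passed adjustment in any comparison. None had counts that separated AF from AFX at equal length, and 1 separated AF from FS, where 0.836% of all windows were higher in AF in this way. This was Gsk3a, a kinase of the destruction complex, with 6, 5 and 5 peaks in AF and 4, 4, 4, 3, 1 and 3 in FS (exact permutation p 0.0238, adjusted p 1). Against ES, 4 of 34 were higher in AF with no overlap, against 10.9% of all windows. These were Gsk3a at 6, 5, 5 against 3, 4, 4, the ubiquitin ligase gene Rnf43 at 2, 2, 2 against 0, 0, 1, and the Dishevelled genes Dvl1 at 5, 4, 5 against 2, 2, 2 and Dvl2 at 5, 4, 5 against 2, 1, 0. All 4 had an exact permutation p of 0.1 and an adjusted p of 0.674. As deposited, 20 of 34 were higher in AF than in ES with no overlap, against 39.3% of all windows. The median difference of AF minus ES at equal length was 0.67 peaks over the 8 members, 0.5 over the 34 and 0.33 over all genes tested. For AF minus AFX it was 0 in all of these sets, and for AF minus FS it was 0.17 over the members, 0.17 over the 34 and 0 over all genes.

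The genes whose window counts at equal length ran most like a member's over the 18 first-set libraries were named as a description, since such sparse counts share list length and tie easily. For Lef1 they were Bsx and Dgkd, each at a Pearson r of 0.877, with 3 genes tied at that value. For Axin2 they were Gnao1 at 0.793 and Selp at 0.756, and for Tcf7l1 Ccdc57 at 0.783 and Rybp at 0.772. For Tcf7l2, whose counts are 0 or 1, Acaa2 and Arhgap29 were at 1, with 7 genes tied at that value.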

How the data were processed

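The authors deposited 26 peak lists in the broadPeak layout, 1 per library, so peaks had been called per sample. The submitters' processing notes name Trim Galore, Bowtie, Picard, MACS2 and the build mm10; versions and settings are not given in the sources used here. The deposited columns give a score, a fold enrichment (ratio) and −log10 p and q values per peak, the authors' own, used only within a list to rank, filter or describe peaks. The deposited score, a rescaled −log10 q, was left aside. Read counts, and so depth, were unknown.

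Gene spans and promoters came from RefSeq tables of GRCm38.p6, the build that mm10 names; 7 of 8 members matched the promoter table. Peaks of all lists were merged into regions, with an overlap of 1 bp counted as presence. For equal list length, each list was cut by −log10 p to its top 8044 peaks, as many as in the shortest first-set list. Window counts were compared by two-sided exact permutation over libraries and regions by two-sided Fisher's exact test, each with Benjamini-Hochberg adjustment over all genes or regions with a peak (Python 3.11.15, pandas 2.3.3, scipy 1.17.1), threshold 0.05. A region was separated when every library of a type and none of the other had a peak. The permutation test was tested on simulated counts for AF against AFX over 18230 genes: of 200 genes with 8 peaks added, 99% had the smallest p, and 1.78% of unchanged genes had a p under 0.05. The 8 added peaks exceed every single-window difference of a member between AF and AFX. The simulated libraries also had no differences of line or list length. The 99% therefore does not tell how often differences of the size seen here would be found.

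The members and gene lists were chosen with earlier results of these data known. Named were all 8 members and, per member, the start region, separated regions, those in all 18 first-set lists and that with the largest difference between AF and each other type; other regions named were chosen after their values were seen. Alternatives changed the list length, ranking, q minimum, window, overlap and libraries. Libraries of a group shared at most 0.0746% of peaks with identical coordinates.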

Additional observations from a re-analysis of the deposited data

Results flagged for a closer look

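Libraries far from the others of their type were looked for in 45 groups of window counts, and 10 were found. The limit used marks about 1 in 20 groups by chance for continuous values. Counts this small are whole numbers, where a single peak is enough to stand apart, and the rate of chance for them was not established. At equal list length, among 6 FS libraries, FS2 2 stood alone with 1 Ctnnb1 peak, FS1 2 alone with 1 Lgr5 peak and FS2 1 alone with 0 Axin2 peaks. Among 6 AFX libraries at that length, AFX2 3 stood alone with 1 Ctnnb1 peak, AFX1 3 with 3 Lef1 peaks, AFX1 1 with 1 Tcf7 peak, the one over the Skp1 start, and AFX2 1 with 2 Axin2 peaks. As deposited, AFX2 3 stood alone with 2 Ctnnb1 peaks and with 1 Sp5 peak, and AFX1 1, the shortest AFX list, with 6 Tcf7l1 peaks.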

How the results depend on the processing

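The count of windows past adjustment was 0 under all 45 alternatives run over the 3 comparisons. For AF against ES no call was possible, since 3 against 3 libraries give no p below 0.1. At equal length, calls needed 3868 windows at the smallest p for AF against AFX and 3987 for AF against FS. Only 83 and 221 windows reached it. The unchanged 0 therefore does not measure how stable the results are. The libraries of a group carry the same numbers 1 to 3, and deviations of same-numbered libraries correlated between -0.04 and 0.03. On counts this sparse, that range cannot show whether the numbers pair libraries across groups. With a replicate block 0 windows were called in each comparison. The difference in summed member peaks moved most with list length. For AF minus AFX it was 1.5 at equal length, -6.67 as deposited and -1.67 with −log10 q of at least 5, and for AF minus ES 3.67, 19.3 and 7. The number of separated member regions for AF against AFX was 0, and 0 to 2 with single libraries left out, the 2 without AF 1. For AF against FS it was 0, and 1 as deposited. For AF against ES it was 1, 7 as deposited and 4 with −log10 q of at least 5, and 1 to 3 with single libraries left out: 3 of 16 tested without AF 1, where 7.83% of all regions were held by AF, and 2 each without AF 3, ES 2 or ES 3. Of the differences of single member windows, 17 turned from one sign to the other and 343 did not, and the cause was not tested. For AF minus AFX, Ctnnb1 turned from 0.17 to -0.17 as deposited and without AF 1 (-0.17 to 0.33 with single libraries left out), Tcf7l1 from 0.83 to -1 as deposited and -0.33 with −log10 q of at least 5, Axin2 from 0.83 to -0.83 as deposited, and Lef1 from -0.17 to 0.33 with 20 kb windows. For AF minus FS, Ctnnb1 turned from 0.17 to -1 as deposited, -0.17 ranked by fold enrichment or without AF 1, -0.17 to 0.33 with single libraries left out, and -0.5 with lists cut to the shortest compared. Lgr5 turned from -0.17 to 0.5 and 0.33 in the same order of list lengths. Axin2 turned from 0.17 to -0.33 without AF 2, -0.2 without FS2 1 (-0.33 to 0.67 with single libraries left out) and -0.33 without the FS2 line. For AF minus ES, Lgr5 turned from -0.33 to 1 as deposited and Ctnnb1 from -0.33 to 0.33 with −log10 q of at least 5. The lists cut to the shortest compared, the set without FS2 and the windows without peaks at other starts were added after seeing the data. Depth was unknown, so an absent peak is no evidence of closed chromatin.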
